A study of Mus musculus with 20 samples.

Results

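The Mef2 genes, Mef2a, Mef2b, Mef2c and Mef2d, were followed in the brains of newborn mice with and without the histone deacetylase gene Hdac4. Members were chosen by annotation alone: the 4 genes, of 18193 with a symbol of their own, are read by the probe sets whose platform symbol is 1 of these names, 15 of the 45101 on the array (Mef2a 6, Mef2b 1, Mef2c 5 and Mef2d 3). A probe set is a group of short probes whose signals are summarised to a single value for a transcript. A further probe set, annotated to both Borcs8 and Mef2b, was left out. The arrays were Affymetrix mouse genome chips hybridised with total RNA of whole brain. There were 10 WT and 10 Hdac4KO arrays, and the labels give 5 males and 5 females in each genotype. All pups were untreated, 3 days old (postnatal day 3, P3) and of the mixed B6CBAF1/OlaHsd background. Hdac4KO pups were homozygous offspring of heterozygous parents. Whether the WT pups were their littermates is not stated in the methods. The knock-out is thus not confined to 1 cell type, and whole brain pools all of its cell types. The methods count brains by sex and genotype, so each array is taken here as the brain of 1 pup. On that reading the p-values measure the spread between these brains. Hdac4KO replicate 10, in which genes of both sexes were present, was kept, and whether it held RNA of 1 pup was not tested.

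MEF2 proteins are transcription factors with a MADS box, which bind DNA as dimers at an A/T-rich element. Class IIa histone deacetylases, HDAC4 among them, dock on MEF2 and repress its target genes, and calcium-dependent kinases and the phosphatase calcineurin relieve that repression in active neurons. In the brain Mef2c is known for its role in cortical neuron development and synapse number, Mef2a and Mef2d for the response of neurons to activity and for survival of granule neurons, and Mef2b mainly for its role in B lymphocytes.

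The RefSeq sequence around the transcription start of each gene (GRCm38.p6, 250 bases before and 50 after the start) is shown first, because the MEF2 element is what these factors bind and because the 4 promoters differ in it. The tables held 6 such windows: 3 for Mef2c and 1 for each of the others. On both strands they were searched for the MEF2 element, for the GC box GGGCGG and for the CCAAT box CCAAT. Of all 32851 windows of this length, 3.19% held a MEF2 element, 35.7% a GC box and 37.4% a CCAAT box. Among the 6 windows a MEF2 element was found in that of Mef2a only, where it began 2 bases before the start and ran across it. Capitals mark the element in the 30 bases below, chr7:67372841-67372870, minus strand.
Mef2a: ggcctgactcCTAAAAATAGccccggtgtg
The windows of Mef2d and Mef2b each held 2 GC boxes and 1 CCAAT box, and the window at the first Mef2c start held 2 CCAAT boxes and no GC box. Capitals mark these boxes below, a box on the opposite strand appearing as CCGCCC or ATTGG. The stretches are chr3:88142238-88142324 for Mef2d, chr8:70152658-70152727 for Mef2b and chr13:83503973-83504011 for Mef2c, all on the plus strand.
Mef2d: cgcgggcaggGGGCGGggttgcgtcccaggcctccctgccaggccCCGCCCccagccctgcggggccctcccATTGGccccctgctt
Mef2b: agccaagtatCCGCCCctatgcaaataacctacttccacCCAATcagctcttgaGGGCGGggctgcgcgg
Mef2c: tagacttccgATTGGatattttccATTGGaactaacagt
A match describes the letters of the window and does not show that a factor binds there.

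The targeted gene was lower in the Hdac4KO arrays at each of its 3 probe sets, with log2 fold changes from −1.39 to −0.46 (adjusted p from 6.28e-07 to 0.0198, limma). The lowest WT array (replicate 8, 7.54 at 1454693_at) and the highest Hdac4KO array (replicate 10, 7.43) stood closest to the other genotype. Sex-linked genes departed from the label in 3 arrays. In WT replicate 5, labelled male, and WT replicate 9, labelled female, Xist and the Y-linked genes were those of the other sex. Hdac4KO replicate 10, labelled male, had Xist at 12.27, as in females, together with the Y-linked genes Eif2s3y at 8.60 and Kdm5d at 6.88, each below the other arrays that carry it, so genes of both sexes were present. RNA integrity was read from the actin and Gapdh controls as the signal at the 3′ end minus that at the 5′ end. On the log2 scale this 3′ excess was 0.19 ± 0.03 in the 10 WT arrays and 0.22 ± 0.03 in the 10 Hdac4KO arrays (mean ± SD, two-sided permutation test, p = 0.0841). For actin alone it was 0.48 and 0.52 (permutation test, p = 0.0490) and for Gapdh alone −0.10 and −0.09 (permutation test, p = 0.476). Signals below are log2 values, differences are Hdac4KO minus WT, and each adjusted p comes from limma with Benjamini-Hochberg adjustment over the 45037 probe sets tested. Signals of different probe sets share no scale, so levels are compared between arrays and not between probe sets.

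Of the 15 probe sets, 2 passed the test, 1 of Mef2d and 1 of Mef2a, both higher in Hdac4KO, by 1.12-fold and 1.11-fold. None was lower. Over all probe sets tested 1.05% were called higher and 1.01% lower. At an unadjusted p under 0.05 stood 6 of the 15 members, beside 18.0% of all probe sets. The 15 differences ran from −0.24 to 0.16 with a median of −0.05, and 7 were above 0 and 8 below it, beside a median of 0.00 over all probe sets.

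Mef2d, whose product recruits class IIa deacetylases in neurons, had its largest difference at 1434487_at. There the WT arrays ran from 9.72 through a median of 9.80 to 9.87, and the Hdac4KO arrays from 9.82 through 9.96 to 10.06. The groups hardly overlapped: 9 Hdac4KO arrays exceeded the highest WT array, and the last one still exceeded the WT mean and 6 of the WT arrays. The mean ± SD over 10 arrays was 9.80 ± 0.06 in WT and 9.96 ± 0.08 in Hdac4KO brains, so that this signal rose by 0.16 (SE 0.03, adjusted p = 0.0213), or 1.12-fold. In whole-brain RNA, more cells that express a gene and more RNA per cell cannot be told apart, and this holds for each result below.

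The other 2 Mef2d probe sets had differences below 0 that did not pass the test. At 1437300_at the WT arrays ran from 8.01 through 8.13 to 8.28 and the Hdac4KO arrays from 8.0007 through 8.07 to 8.17, with overlap over most of the range (difference −0.08, SE 0.03, adjusted p = 0.220). At 1421388_at WT ran from 6.89 through 7.11 to 7.28 and Hdac4KO from 6.98 through 7.01 to 7.13 (difference −0.06, SE 0.05, adjusted p = 0.517). The Hdac4KO arrays lay within the WT range there.

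**Figure D1:**
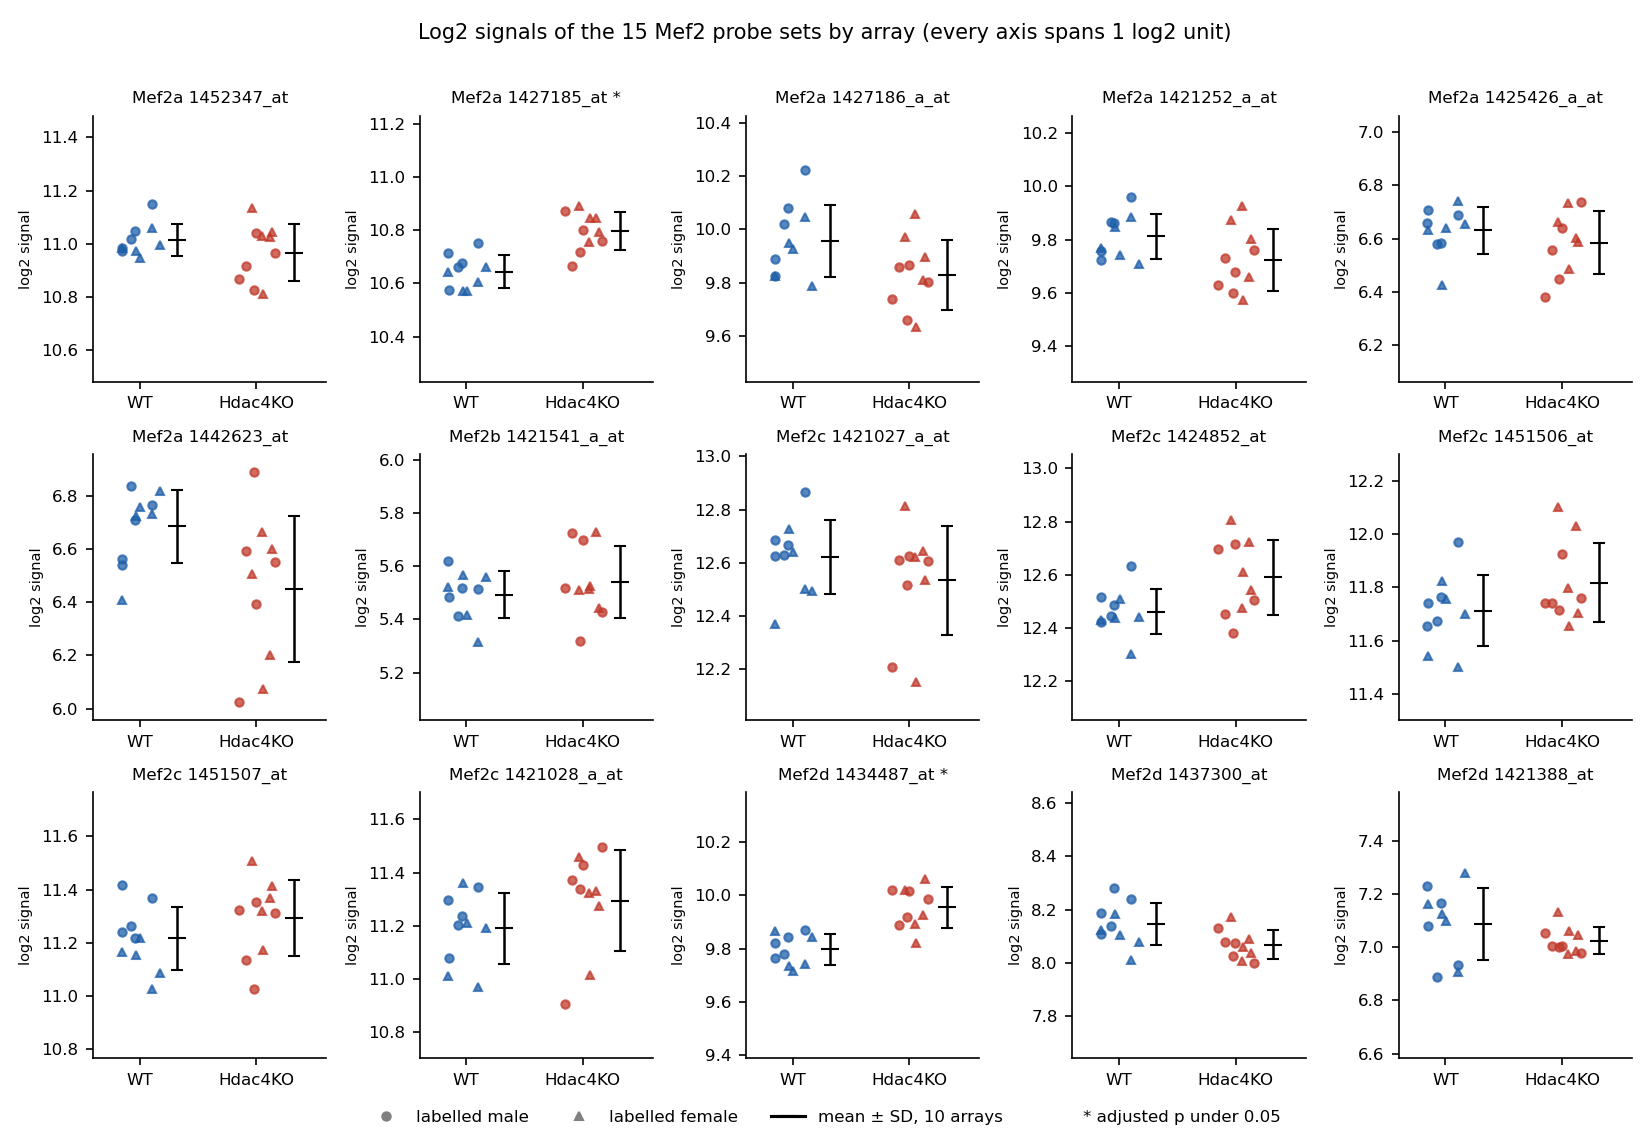
Log2 signal (y axis, 1 log2 unit in every panel) of the 15 Mef2 probe sets in each of the 10 WT (blue) and 10 Hdac4KO (red) arrays, with circles for arrays labelled male, triangles for arrays labelled female and bars for the mean ± SD. Hdac4KO arrays sit above most WT arrays at Mef2a 1427185_at and Mef2d 1434487_at (asterisks, adjusted p under 0.05) and the groups overlap widely in the other panels.

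Mef2a, which acts with Mef2d in neurons and muscle, was measured by 6 probe sets, of which 1 was called. At 1427185_at the WT arrays ran from 10.57 through a median of 10.65 to 10.75, and the Hdac4KO arrays from 10.67 through 10.80 to 10.89. All 10 Hdac4KO arrays exceeded the WT mean, 8 exceeded the highest WT array, and 7 WT arrays lay below the lowest Hdac4KO array. The mean ± SD over 10 arrays was 10.64 ± 0.06 in WT and 10.80 ± 0.07 in Hdac4KO brains, so that this signal rose by 0.15 (SE 0.03, adjusted p = 0.0235), or 1.11-fold.

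The other 5 Mef2a probe sets all had differences below 0, and none passed the test. The brightest of them, 1452347_at, ran from 10.95 through 10.99 to 11.15 in WT and from 10.81 through 10.9965 to 11.13 in Hdac4KO brains, so that the medians nearly coincided (difference −0.05, SE 0.04, adjusted p = 0.590). The platform annotation lists it under the same sequence record as 1427185_at and 1427186_a_at. At 1427186_a_at WT ran from 9.79 through 9.94 to 10.22 and Hdac4KO from 9.63 through 9.83 to 10.06 (difference −0.13, SE 0.06, adjusted p = 0.245). The groups overlapped over most of that range. The lowest difference of all members was that of 1442623_at, where WT ran from 6.41 through 6.73 to 6.84 and Hdac4KO from 6.03 through 6.53 to 6.89 (difference −0.24, SE 0.09, adjusted p = 0.166). The SD was 0.14 in WT and 0.28 in Hdac4KO arrays at this dim probe set. The difference was −0.09 (SE 0.05, adjusted p = 0.315) at 1421252_a_at and −0.05 (SE 0.05, adjusted p = 0.648) at 1425426_a_at.

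Mef2c, which acts in cortical excitatory neurons and microglia among other cells, had no called probe set among its 5. Its brightest, 1421027_a_at, ran from 12.37 through a median of 12.63 to 12.87 in WT and from 12.15 through 12.61 to 12.81 in Hdac4KO brains. Hdac4KO replicates 9 and 10 were the lowest of the 20 arrays and the other Hdac4KO arrays lay within the WT range. The difference was −0.09 (SE 0.07, 95% interval −0.24 to 0.07, adjusted p = 0.580). The other 4 probe sets had differences above 0, from 0.08 to 0.13. At 1424852_at, with the largest of these, WT ran from 12.30 through 12.44 to 12.63 and Hdac4KO from 12.38 through 12.58 to 12.81 (difference 0.13, SE 0.05, adjusted p = 0.179). The differences were 0.11 (SE 0.06, adjusted p = 0.384) at 1451506_at, 0.08 (SE 0.06, adjusted p = 0.513) at 1451507_at and 0.10 (SE 0.07, adjusted p = 0.458) at 1421028_a_at. A missed threshold does not show that Mef2c was the same in both genotypes.

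Mef2b was the only member whose signal lay below the median of all probe sets, which was 6.26 to 6.32 in the 20 arrays. At 1421541_a_at WT ran from 5.32 through 5.52 to 5.62 and Hdac4KO from 5.32 through 5.52 to 5.73, with equal medians. The difference was 0.05 (SE 0.05, 95% interval −0.06 to 0.15, adjusted p = 0.680). Markers of B lymphocytes, the cells Mef2b is best known in, were also below that median at each of the 3 measured (Cd79a, Cd79b and Ms4a1).

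Both Mef2 calls lay near the threshold. With the 3′ excess in the model the rise of Mef2d at 1434487_at was 0.15 (adjusted p = 0.0918) and that of Mef2a at 1427185_at 0.14 (adjusted p = 0.1001). Leaving out WT replicates 5 and 9 and Hdac4KO replicate 10, whose sex-linked genes depart from the label, left 0.15 for Mef2d (adjusted p = 0.0535) and 0.13 for Mef2a (adjusted p = 0.0828). Without WT replicate 8 and Hdac4KO replicate 10 the Mef2d rise was 0.15 (adjusted p = 0.0526). The part of RNA integrity in these results was not tested beyond that model.

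**Figure D2:**
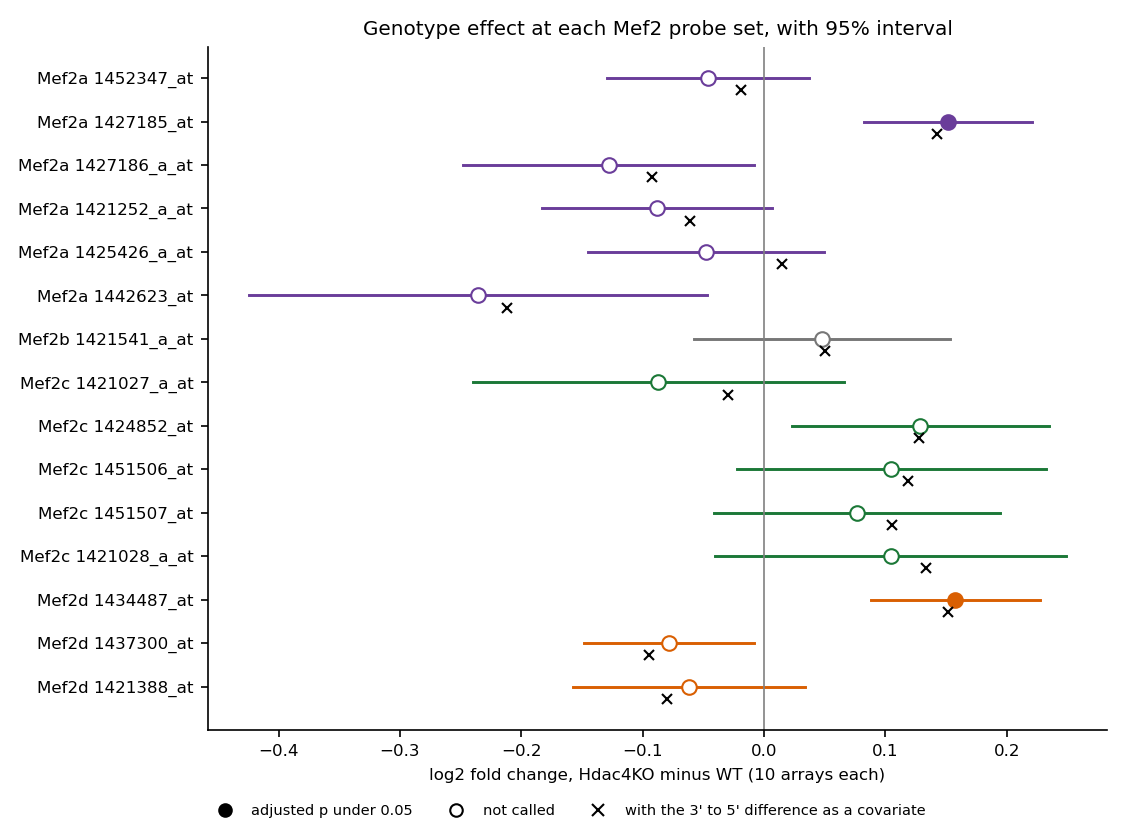
Log2 fold change (x axis, Hdac4KO minus WT, 10 arrays each) of the 15 Mef2 probe sets, with lines for the 95% interval, filled points for an adjusted p under 0.05 and crosses for the value with the 3′ excess in the model. The called probe sets of Mef2a (0.15) and Mef2d (0.16) lie to the right of 0 while the other probe sets of the same genes lie to the left.

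Some probe sets of the same Mef2 gene differed in their genotype effect, which was tested on the difference between them within each array. The 15 probe sets form 28 such pairs. Each pair was tested with limma among the 30372 same-gene pairs of all 9010 genes with more than 1 probe set, of which 5.19% differed by genotype at an adjusted p under 0.05. Of the 28 Mef2 pairs 9 did, 5 of 15 for Mef2a, 2 of 10 for Mef2c and 2 of 3 for Mef2d. Pairs that share a probe set are not independent. All 5 Mef2a pairs held 1427185_at, both Mef2c pairs held 1421027_a_at and both Mef2d pairs held 1434487_at. Which transcript ends or isoforms these probe sets match was not analysed here.

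In Mef2d the signal of 1434487_at exceeded that of 1437300_at by 1.55 to 1.76 in the WT arrays and by 1.76 to 2.03 in the Hdac4KO arrays. The groups touched without overlapping, since the highest WT value was below the lowest Hdac4KO value by less than 0.001. Only 39 of the 30372 pairs (0.128%) had no overlap, and this was the only Mef2 pair among them. The effect of genotype on the difference was 0.24 (SE 0.04, adjusted p = 0.00427). It stayed past the threshold with the 3′ excess in the model (0.25, SE 0.04, adjusted p = 0.0154), as the only Mef2 pair that did, where 0.56% of all pairs were called. The second called Mef2d pair, 1434487_at against 1421388_at, had an effect of 0.22 (SE 0.05, adjusted p = 0.0187).

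In Mef2a the effect was 0.28 (SE 0.06, adjusted p = 0.0172) for 1427185_at against 1427186_a_at and 0.20 (SE 0.04, adjusted p = 0.0144) against 1452347_at. These are the probe sets listed under the same sequence record. Against 1442623_at it was 0.39 (SE 0.11, adjusted p = 0.0397). In Mef2c it was −0.19 (SE 0.04, adjusted p = 0.0187) for 1421027_a_at against 1421028_a_at. At these called pairs the genotype difference thus varied between probe sets of the same gene, as judged against its standard error. With the 3′ excess in the model no Mef2a or Mef2c pair passed. The smallest adjusted p from limma was then 0.0803 for Mef2a and 0.0949 for Mef2c.

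**Figure D3:**
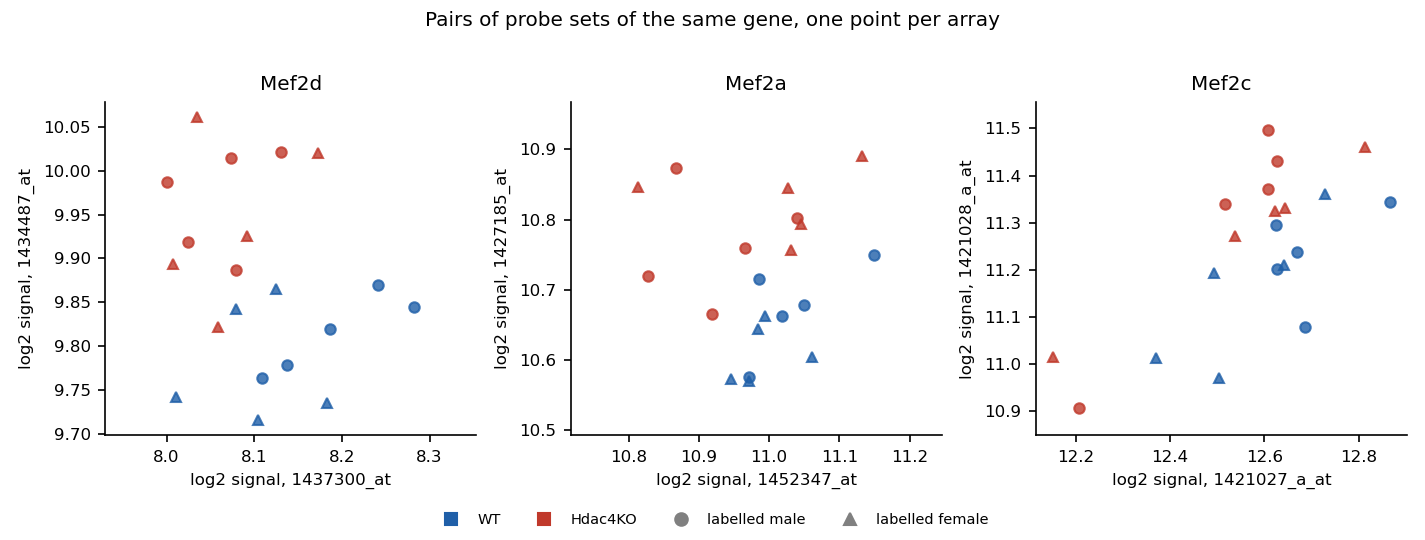
Log2 signal of 2 probe sets of the same gene, plotted against each other for the pair of each gene with the smallest p, with 1 point for each array (blue WT, red Hdac4KO, circles labelled male, triangles labelled female). In Mef2d the within-array difference is 1.55 to 1.76 in WT and 1.76 to 2.03 in Hdac4KO arrays, so the genotypes lie on either side of a line parallel to the diagonal.

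Across arrays of the same genotype the probe sets of a Mef2 gene also differed in how far they varied together. Pearson's r was taken over the 20 arrays on values minus their genotype mean, for 28 same-gene pairs and the 6 pairs of brightest probe sets of different genes. The arrays, their RNA and their normalisation are shared by all probe sets. In Mef2a r ran from −0.45 to 0.92 with a median of 0.39, in Mef2c from 0.13 to 0.86 with a median of 0.59, and in Mef2d from 0.24 to 0.37. The highest was that of Mef2a 1427186_a_at with 1421252_a_at. The lowest was that of Mef2a 1427185_at, the called probe set, with 1442623_at, where r was 0.08 within WT and −0.70 within Hdac4KO arrays and the pooled value of −0.45 (Spearman's rho −0.42) did not pass (permutation test, adjusted p = 0.136 for r and 0.176 for rho over the 34 pairs, r = −0.52 without the 2 outermost arrays). Among the brightest probe sets of different genes r ran from 0.07 to 0.69, with Mef2a and Mef2c the most alike. For that pair r passed (permutation test, adjusted p = 0.00650) but rho, at 0.57, did not (permutation test, adjusted p = 0.0569). Its r was 0.41 within WT and 0.80 within Hdac4KO arrays, and 0.54 without the 2 outermost arrays.

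**Figure D4:**
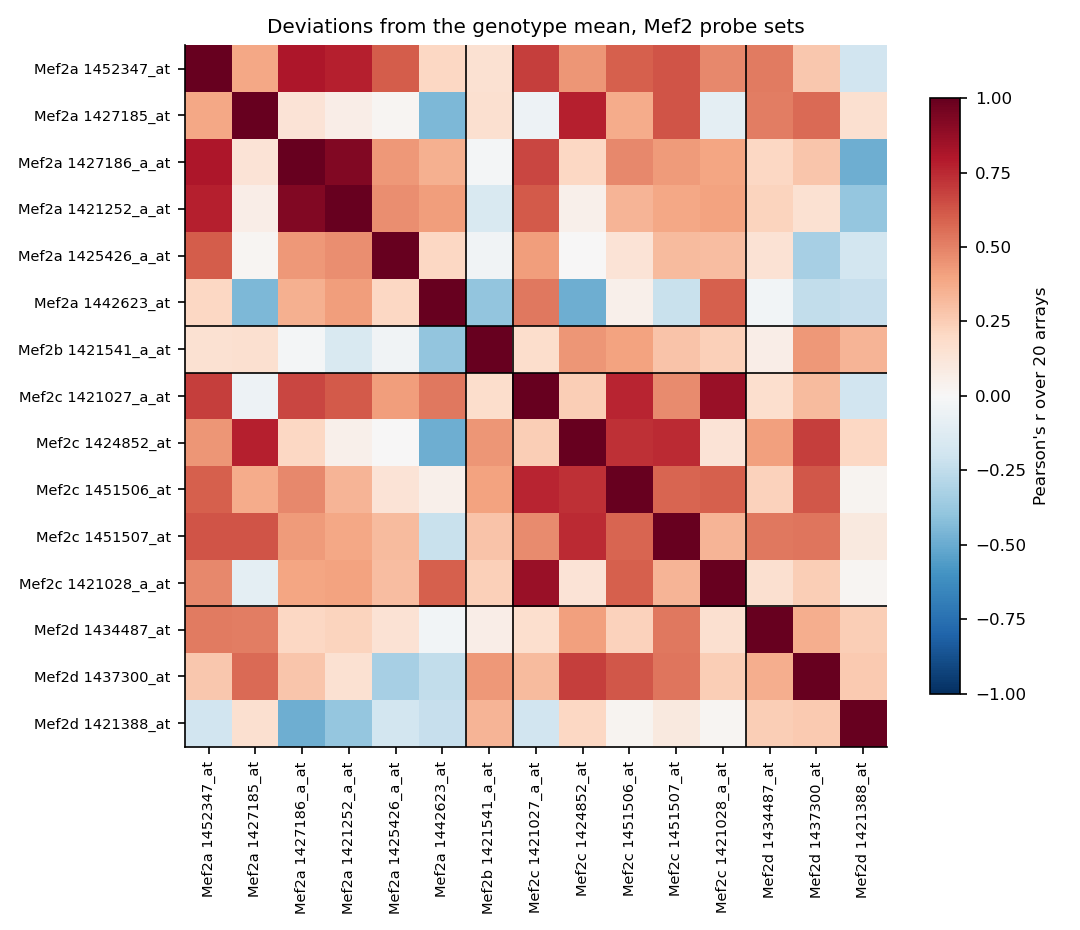
Pearson's r over 20 arrays (colour, from −1 to 1) between the deviations of the 15 Mef2 probe sets from their genotype means, with lines between genes. Within Mef2a r runs from −0.45 to 0.92 and within Mef2c from 0.13 to 0.86.

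The genes most like each Mef2 gene were sought among the brightest probe sets of all other genes above the median signal (11557 for Mef2a, for example), by r over the 20 arrays on the same deviations. These are the highest values of a search and carry no test, and each Mef2 gene was read at its brightest probe set only. For Mef2d (1434487_at) they were Sirpa, a membrane receptor of neurons and microglia (r = 0.86), Camk1d, a calcium/calmodulin-dependent kinase (r = 0.84), and Prrt1, a protein associated with AMPA receptors (r = 0.81). Sirpa was itself higher in Hdac4KO brains by 0.19 (adjusted p = 0.0198). For Mef2c (1421027_a_at) they were Mctp1, a membrane protein with C2 domains (r = 0.90), Synm, an intermediate filament protein (r = 0.87), and Nrip1, a nuclear corepressor (r = 0.85). Spearman's rho was lower, 0.82, 0.63 and 0.72 in that order. Within WT arrays r was 0.83, 0.62 and 0.74, and within Hdac4KO arrays 0.97, 0.97 and 0.92. Without the 2 outermost arrays r was 0.85, 0.71 and 0.76. For Mef2a (1452347_at) they were Fezf2, a factor of deep-layer cortical neurons (r = 0.78), Opcml, a cell adhesion molecule (r = 0.77), and Bbs4, a subunit of the BBSome of cilia (r = 0.73). In that order r was 0.48, 0.21 and 0.42 within WT and 0.93, 0.88 and 0.82 within Hdac4KO arrays. For the dim Mef2b they were Ins2 (r = 0.84), Slc25a46 (r = 0.82) and Mpv17l (r = 0.76).

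Whether the effect of genotype on the Mef2 genes differed between sexes was tested as an interaction, with the sexes as labelled. No member passed, and neither did any other probe set (0% of 45037 called by limma, with 2409 at an unadjusted p under 0.05, 1 of them a member). The Mef2d rise at 1434487_at was 0.16 (SE 0.05) in females and 0.15 (SE 0.05) in males. That of Mef2a at 1427185_at was 0.22 (SE 0.04) in females and 0.09 (SE 0.04) in males, a difference between sexes of −0.13 (SE 0.06, adjusted p = 0.917 from limma). The smallest interaction p belonged to Mef2c 1451507_at, with 0.23 (SE 0.07) in females and −0.07 (SE 0.07) in males (adjusted p = 0.915 from limma). Without WT replicates 5 and 9 and Hdac4KO replicate 10, whose sex-linked genes depart from the label, 0 members passed as well. There 2 members stood at an unadjusted p under 0.05, Mef2a 1427185_at and Mef2c 1451507_at. Their differences between sexes were then −0.19 (SE 0.06) and −0.35 (SE 0.11), each with an adjusted p of 0.515 from limma. The share of all probe sets at that level in these arrays is not given here.

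Genes that act with MEF2 were taken from lists of general knowledge, each gene being read at its brightest probe set. The lists were drawn up with earlier results of these data known. Their counts and medians therefore describe these data and are no independent test. Over all 18193 genes measured this way 1.45% were higher and 0.517% lower in Hdac4KO brains, with a median difference of 0.01, and 18.95% stood at an unadjusted p under 0.05 in either direction. Of the corepressors and coactivators, 11 of 13 listed genes were measured. Hdac4 was lower, 1 other was higher, and the median of the other 10 was 0.05. At an unadjusted p under 0.05, 4 were higher and 1, Hdac4, was lower. The gene called higher was Hdac5, a class IIa deacetylase like HDAC4. It ran from 9.08 through 9.21 to 9.28 in WT and from 9.22 through 9.39 to 9.45 in Hdac4KO brains, with 9 Hdac4KO arrays above every WT array. Its rise was 0.17 (SE 0.03, adjusted p = 0.0179). Hdac9, which also binds MEF2, had a difference of 0.21 (SE 0.06, adjusted p = 0.0548), and Hdac3, the catalytic partner of the class IIa enzymes, one of 0.08 (SE 0.03, adjusted p = 0.115).

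Of the 16 kinases and phosphatases that act on MEF2 or its corepressors, all were measured, 2 were higher and 0 lower, and the median was 0.07. Over all genes 1.45% were higher and 0.517% lower. At an unadjusted p under 0.05, 7 of these 16 were higher and 0 lower, beside the 18.95% of all genes. Ppp3r1, the regulatory subunit of calcineurin, ran from 11.56 through 11.64 to 11.74 in WT and from 11.68 through 11.80 to 11.92 in Hdac4KO brains. All 10 Hdac4KO arrays exceeded the WT mean, and the rise was 0.15 (SE 0.04, adjusted p = 0.0427). Map2k5, which activates the MEF2 kinase ERK5, ran from 8.68 through 8.79 to 8.90 in WT and from 8.73 through 8.94 to 9.09 in Hdac4KO brains (rise 0.16, SE 0.04, adjusted p = 0.0427). There 8 Hdac4KO arrays lay above every WT array and 3 WT arrays below every Hdac4KO array. Camk4, a kinase of neuronal nuclei, had the largest difference of these lists other than Hdac4, 0.49 (SE 0.14), but its spread was wide and it did not pass (adjusted p = 0.0621).

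Of the transcription factors that bind with MEF2 or share its MADS box, 9 of 10 were measured and 0 passed, with a median of 0.02 and 2 at an unadjusted p under 0.05, a share near the 18.95% of all genes. The smallest p belonged to Smad3 (difference 0.10, SE 0.04, adjusted p = 0.145) and Nfatc4 (difference 0.11, SE 0.05, adjusted p = 0.212).

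Of the neuronal targets of MEF2, 24 of 26 were measured, 4 were higher and 0 lower, and the median difference was 0.12. Hdac5 and Hdac9 stand in this list too. At an unadjusted p under 0.05, 14 were higher and 1 lower, beside the 18.95% of all genes. With every probe set of a gene counted, the 4 MEF2 lists without Hdac4 held 8 genes called higher and 2 called lower in place of 6 and 0. The share of all genes called by that wider rule is not given here, so these 2 counts have no background. Ube3a was lower at a dimmer probe set, and Crebbp, a coactivator, was called in both directions at different probe sets. Sez6, a membrane protein of dendrites, ran from 10.24 through 10.31 to 10.36 in WT and from 10.39 through 10.47 to 10.62 in Hdac4KO brains. The groups did not overlap, and the rise was 0.18 (SE 0.03, adjusted p = 0.00518). The share of all genes whose groups did not overlap is not given here, so that separation has no background. The activity-induced factor Egr1 ran from 8.91 through 9.27 to 9.67 in WT and from 9.40 through 9.71 to 9.90 in Hdac4KO brains (rise 0.41, SE 0.08, adjusted p = 0.0162). Fos, of the same class, ran from 7.73 through 7.93 to 8.22 in WT and from 8.07 through 8.21 to 8.37 in Hdac4KO brains (rise 0.26, SE 0.05, adjusted p = 0.0203). For both, 8 WT arrays lay below the lowest Hdac4KO array. With the 3′ excess in the model only Sez6 of the 6 higher genes in these lists passed (adjusted p = 0.0269), and without WT replicate 8 and Hdac4KO replicate 10 Sez6, Hdac5, Egr1 and Fos did.

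Promoter windows were found for 20 genes of the target list, and 4 of their 30 windows held a MEF2 element. They are printed to be set beside that of Mef2a, as 30 bases each on the minus strand with the element in capitals. The positions are chr11:102230173-102230202 for Hdac5, chr4:95052236-95052265 for Jun, chr1:191183336-191183365 for Atf3 and chr14:88471615-88471644 for Pcdh20.
Hdac5: gggtctgagcCTATTTTTAGctcggggtcg
Jun: acatcatgggCTATTTTTAGggattgactg
Atf3: tccctggaagCTATTAATAGcattacgtca
Pcdh20: ggagctacctTTAAAATTAAacctacaggc
Of these 4 genes Hdac5 was the only one called.

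**Figure D5:**
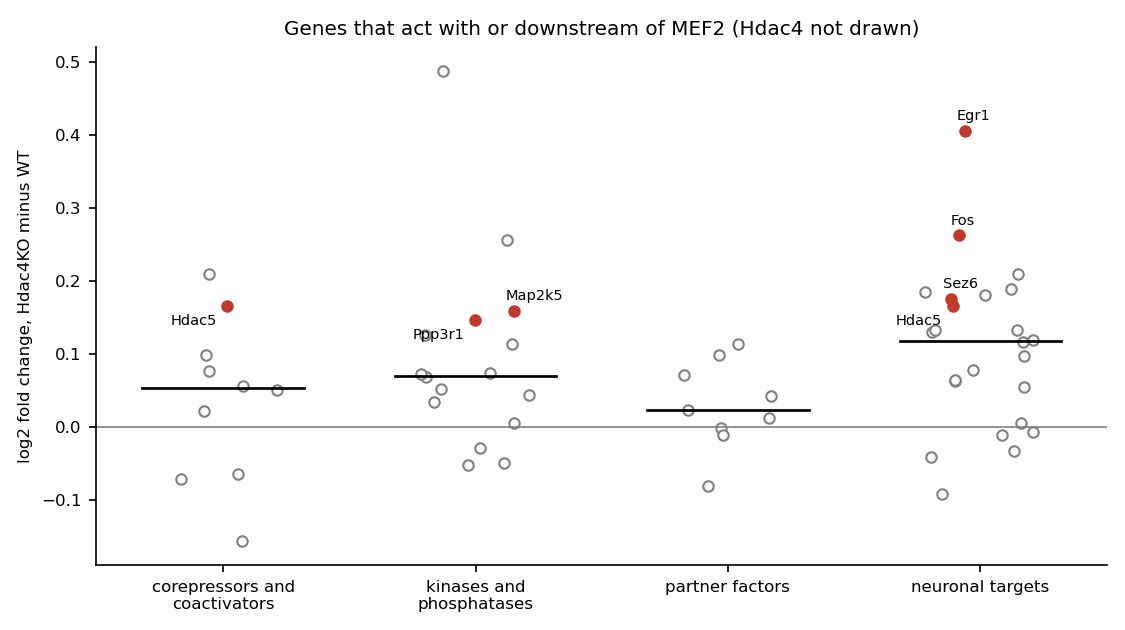
Log2 fold change (y axis, Hdac4KO minus WT) of genes that act with or downstream of MEF2, 1 point for each gene at its brightest probe set, grouped by list (x axis), with lines for the list median and filled red points for an adjusted p under 0.05. Hdac4, which was lower, is not drawn. The called genes shown are above 0, Hdac5 stands in the first and last list, and the neuronal targets have the highest median (0.12).

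Markers of the cell types that carry MEF2 were set beside these values. The 6 pan-neuronal genes all lay above the median of all probe sets, with a mean log2 signal of 12.75 to 12.81 in WT and 12.77 to 12.89 in Hdac4KO arrays. By brightest probe set 0 of their members were called, nor any of cortical excitatory neurons (7 measured, median difference 0.02) or interneurons (7 measured, median 0.02). At an unadjusted p under 0.05 stood 2 pan-neuronal genes, 1 excitatory and 0 interneuron genes, where 18.95% of all genes did. The smallest p belonged to Syt1 (difference 0.14, SE 0.04, adjusted p = 0.0504) and Rbfox3 (0.12, SE 0.05, adjusted p = 0.164) among the pan-neuronal genes, and a dimmer probe set of Syt1 was called lower. The microglial list, a cell type with high Mef2c, had a median of 0.15, with 4 of 8 genes higher at an unadjusted p under 0.05 and 0 called, and its mean signal ran from 8.06 to 8.33 in WT and from 8.03 to 8.57 in Hdac4KO arrays. Its smallest p was that of C1qa (difference 0.21, SE 0.06, adjusted p = 0.0704). The radial glial list had a median of −0.10, with 3 of 6 lower at an unadjusted p under 0.05 and 0 called, Fabp7 having the smallest p (difference −0.11, SE 0.03, adjusted p = 0.0782). A dimmer probe set of Nes, of this list, was called lower. Of the 6 skeletal muscle genes, which mark the tissue where MEF2 was first studied, 5 lay below the median of all probe sets and the median difference was 0.06 with 0 called. The endothelial, astrocyte, oligodendrocyte, erythroid and meningeal lists had medians from −0.04 to 0.08 with 0 called. The part of cell makeup in the Mef2 values was not tested.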

How the data were processed

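RNA of 20 whole brains was measured, 10 WT and 10 Hdac4KO. Labelling used a 3′ in vitro transcription kit, and the authors removed chips of poor quality. Log2 signals, already normalised between arrays, were deposited and used as they stand, and the method of that normalisation is not stated in the sources used here. Apart from 64 control probe sets, all 45037 were tested with lmFit and eBayes (limma 3.58.1, R 4.3.3), without covariates, at an adjusted p under 0.05. The methods' t-test was an alternative. Sexes were compared in a fit of 4 groups with 5 arrays each. Pairs of probe sets were tested on within-array differences, for the Mef2 genes also with a permutation test of 100000 resamples. Gene symbols came from the platform annotation, and 34945 probe sets with 1 symbol stand for 18193 genes.

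Named were all members, Hdac4, the called genes of each list (up to 5 by p, otherwise up to 2 with the smallest p) and the 3 genes most like each Mef2 gene. Hdac9, Hdac3, Camk4, Jun, Atf3, Pcdh20, Ube3a, Crebbp and the B lymphocyte genes were added after their values were seen. Members and lists were chosen with earlier results of these data known. Alternatives were other tests, covariates, normalisations, filters, weights, a replicate block and arrays left out. Scripts were tested on simulated data. The number of arrays limits the precision.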

Additional observations from a re-analysis of the deposited data

Results flagged for a closer look

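In 1 of the 30 groups examined (15 probe sets in 2 genotypes) a single array stood far from the others: Mef2a at 1425426_a_at was 6.42 in WT replicate 7, with the nearest WT array at 6.58. Chance gives such a gap in about 1 in 20 groups.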

How the results depend on the processing

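The 15 Mef2 differences were recomputed under 32 alternatives. The only change of sign was that of Mef2a at 1425426_a_at, 0.0145 with the 3′ excess of the controls in the model (adjusted p = 0.917, limma), and no further Mef2 probe set passed under any alternative. Instead of 2 called probe sets there were 0 with that term, 1 without WT replicate 8 and Hdac4KO replicate 10, and 0 without WT replicates 5 and 9 and Hdac4KO replicate 10. Leaving out each array in turn gave 2 to 2, with an adjusted p (limma) of 0.0124 to 0.0496 for Mef2a 1427185_at and 0.0155 to 0.0469 for Mef2d 1434487_at. Over all 32 alternatives Mef2a 1427185_at passed in 30 and Mef2d 1434487_at in 28. The dim Mef2b probe set had no value where dim probe sets were left out. The number of probe sets called in all was 927, with 43 with that term and 351 to 1715 with a single array left out. No Mef2 interaction with sex passed in its 2 alternatives, quantile normalization and the omission of WT replicates 5 and 9 and Hdac4KO replicate 10. Of the 28 pairs, 10 differed by permutation with adjustment over those pairs, 9 by limma over all genes and 1 with that term. The 6 higher genes of the MEF2 lists became 1 with that term. The cause of these changes was not tested.

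With the replicate number as a block, 1 Mef2 probe set was called, Mef2d at 1434487_at standing at 0.16 (adjusted p = 0.0550, limma). Arrays of the same number were little alike: 1 of 10 pairs had a correlation above 0.1, and 1 of 10 arrays correlated best with its own number. At single probe sets the block went both ways. It lowered the SE of Mef2c 1421027_a_at from 0.074 to 0.044 and raised that of Mef2a 1427185_at from 0.033 to 0.035. Whether the numbers mark a shared batch or litter was not tested.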
